A study of Homo sapiens with 24 samples.

Results

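The 10 genes described here encode plasma proteins and were grouped as acute phase and complement proteins of the liver. They are haptoglobin (HP), hemopexin (HPX), lipocalin 2 (LCN2), C-reactive protein (CRP), the 3 chains of fibrinogen (FGA, FGB and FGG), complement component C3, alpha-2-macroglobulin (A2M) and alpha-1-antichymotrypsin (SERPINA3). They were chosen by name, and all 10 were among the 18274 genes measured, each through a single probe set. RNA came from Huh7.5.1, a hepatoma line of human origin in which hepatitis C virus can be grown, and every sample title says that no virus was present. The cells were given silymarin, the flavonolignan mixture taken from milk thistle, or the solvent DMSO. Each RNA sample was measured on 1 Affymetrix Human Gene 1.0 ST array. There were 4 DMSO and 4 silymarin arrays at 4 h, 5 and 3 at 8 h, and again 5 and 3 at 24 h. The silymarin dose was not stated in the labels, and nothing there says that replicates were separate cultures, so p-values measure only the spread between these samples.

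In the acute phase response, interleukin-6 and interleukin-1 reach hepatocytes and act through STAT3, C/EBP factors and NF-kB on the genes of secreted proteins. Haptoglobin binds free hemoglobin and hemopexin binds free heme, so that iron is not lost or left to cause oxidation. Fibrinogen is the substrate of the blood clot, C3 is the central protein of complement, and A2M and SERPINA3 inhibit proteases. CRP and LCN2 belong to the defence against microbes, CRP by binding bacterial surfaces and LCN2 by holding iron-loaded siderophores.

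Markers of hepatocytes were present at high levels. Of the hepatocyte and hepatoma markers, 10 of 11 were measured and none was dim, with albumin (ALB) at a mean log2 level of 13.34 and alpha-fetoprotein (AFP) at 13.13. A gene was called dim when all 6 group means lay under 6.477 on the log2 scale, the 40th percentile of all values. The mean log2 level of the listed markers ranged over the 24 arrays from 6.06 to 6.43 for macrophages, 5.77 to 6.13 for neutrophils, 5.44 to 5.89 for endothelium, 6.27 to 6.47 for fibroblasts and stellate cells, and 5.79 to 6.10 for lymphocytes. In the same order, 4 of 8, 4 of 6, 6 of 7, 2 of 8 and 4 of 6 measured markers were dim. The stress gene DDIT4 split the arrays, with 14 between 7.50 and 8.35 and 10 between 9.67 and 10.34, and its split crossed the treatment labels. DMSO replicates 1 and 4 at 8 h stood apart by low inflammatory genes, and comparisons with DMSO at 8 h are also given without them where the value moved by over 1.5 times. In bulk RNA, a change per cell and a change in the share of cells with a transcript cannot be told apart.

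Promoter sequence was available from RefSeq (GRCh38.p14) for 7 of the 10 genes, as the 250 bases before the annotated start. The fibrinogen genes lie next to each other in the genome, and their windows are shown because the 3 transcripts varied together over the arrays. The hexamer CTGGGA, the core of the interleukin-6 responsive element described in fibrinogen promoters, occurred in all 3 fibrinogen windows and in that of HPX. Capitals mark CTGGGA or, where it lay on the other strand, TCCCAG.
FGA (chr4:154590743-154590992, minus strand): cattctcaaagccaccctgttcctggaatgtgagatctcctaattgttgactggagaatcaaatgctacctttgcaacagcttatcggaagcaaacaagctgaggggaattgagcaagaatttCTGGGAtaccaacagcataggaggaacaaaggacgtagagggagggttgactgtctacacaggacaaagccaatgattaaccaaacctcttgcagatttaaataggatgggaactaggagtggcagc
FGB (chr4:154562730-154562979, plus strand): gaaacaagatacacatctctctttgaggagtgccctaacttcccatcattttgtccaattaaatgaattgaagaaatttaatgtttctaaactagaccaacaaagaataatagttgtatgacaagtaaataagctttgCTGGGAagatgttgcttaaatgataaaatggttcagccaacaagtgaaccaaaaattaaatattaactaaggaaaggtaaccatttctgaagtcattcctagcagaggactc
FGG (chr4:154612657-154612906, minus strand): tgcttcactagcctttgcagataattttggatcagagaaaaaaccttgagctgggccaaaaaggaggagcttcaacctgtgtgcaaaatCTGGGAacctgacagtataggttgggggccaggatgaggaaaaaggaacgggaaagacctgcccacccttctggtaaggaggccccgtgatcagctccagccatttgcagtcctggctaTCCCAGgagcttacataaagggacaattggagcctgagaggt
HPX (chr11:6440988-6441237, minus strand): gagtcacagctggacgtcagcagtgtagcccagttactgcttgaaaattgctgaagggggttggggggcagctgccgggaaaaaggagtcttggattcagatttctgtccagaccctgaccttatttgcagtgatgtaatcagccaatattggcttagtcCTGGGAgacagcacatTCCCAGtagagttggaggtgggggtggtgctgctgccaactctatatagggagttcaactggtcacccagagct
On either strand, CTGGGA was found in 4 of the 7 windows and in 28.8% of 27305 promoter windows of the same length. In FGA it began at -127 from the start, in FGB at -112, and in FGG at -161 with a second copy on the other strand at -42. HPX carried a copy at -90 and one on the other strand at -74. The C/EBP pattern TTNNGNAA was present in 7 of the 7 windows, against 33.6% of all windows. The HNF1 core letters GTTAAT were found in FGA and FGB, on the other strand at -52 and -51, and in 6.22% of all windows. A STAT pattern, TTCNNNGAA, occurred in FGA at -231, against 6.78% of windows, and an NF-kB site in LCN2 at -175, against 9.57%. None of these patterns overlapped a CTGGGA copy. FGB had a second annotated start, whose window held the same CTGGGA copy.

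The comparison of silymarin with DMSO at each time point asked how the treatment altered expression along the time course. None of the 10 genes passed at 4, 8 or 24 h, with limma's adjusted p under 0.05 over all 18274 genes as the threshold. Over all genes 0% passed at each time point. The unadjusted p was under 0.05 for 0, 3 and 0 of the 10 genes at 4, 8 and 24 h, against 2.48%, 3.93% and 3.03% of all genes. The 3 genes were HP, HPX and A2M. Without DMSO replicates 1 and 4 at 8 h it was 1 of 10, A2M, against 2.41% of all genes. Differences above 0 were found for 5 of 10 at 4 h, 7 of 10 at 8 h and 4 of 10 at 24 h, where 47.5%, 42% and 56% of all genes lay above 0. The median log2 difference was 0.00, 0.09 and -0.01, against -0.01, -0.02 and 0.01 over all genes. Re-centring the arrays gave 2 of 10 above 0 at 24 h, with 45.6% of all genes. The replicate block gave 7 of 10, and the share of all genes under the block was not counted. The 3 silymarin arrays lay beyond the 5 DMSO arrays for HP and A2M at 8 h, 2 of 10, against 2.93% of all genes. At 4 h and 24 h the groups overlapped for all 10, against 2.18% and 1.95% of genes without overlap.

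**Figure D1:**
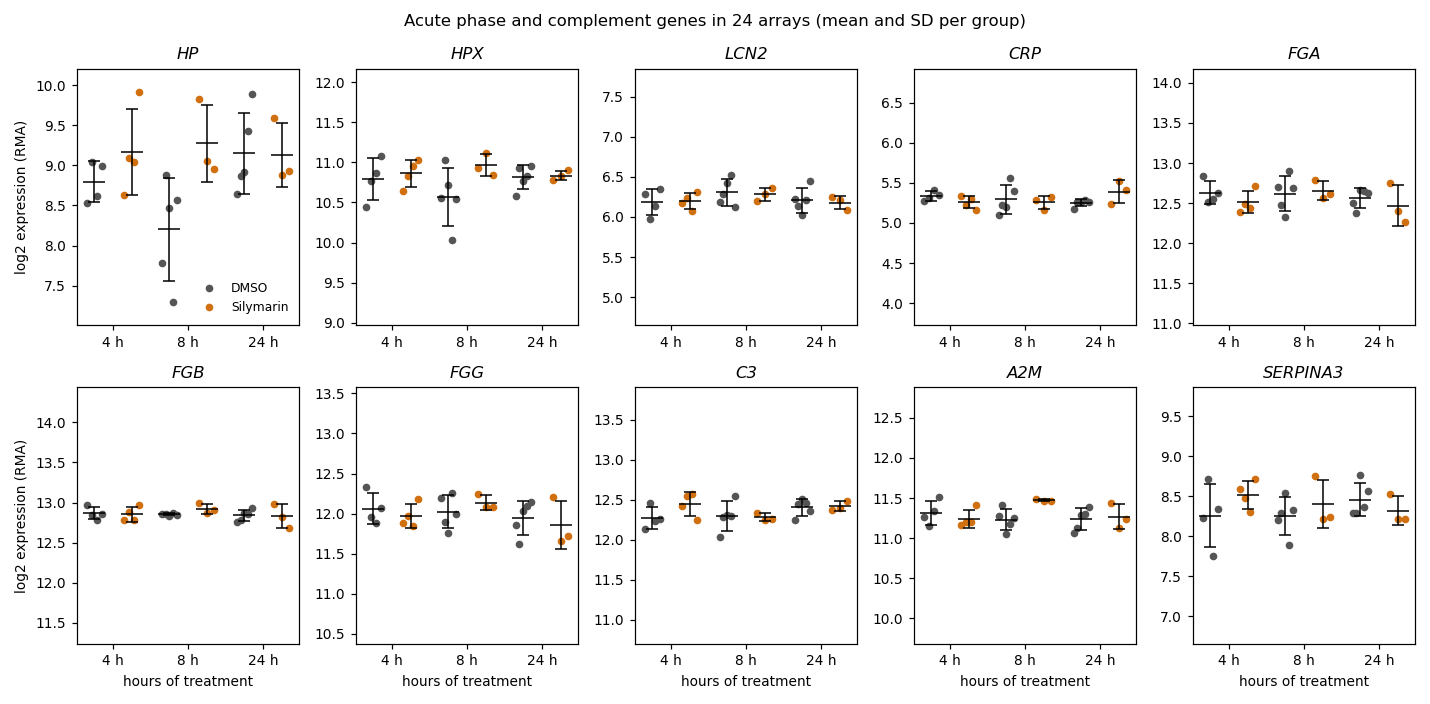
Log2 expression (RMA) of the 10 genes against hours of treatment, 1 point per array, with DMSO in grey and silymarin in orange; bars are the group mean and SD, and each panel spans the same range of log2 values. HP spreads from 7.30 to 9.92, and FGB stays between 12.69 and 12.99.

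At 8 h no other gene exceeded haptoglobin in its difference above 0. Its log2 levels there were 7.78, 8.89, 8.47, 7.30 and 8.57 in DMSO replicates 1 to 5 and 9.82, 9.05 and 8.95 in silymarin replicates 1 to 3. Every silymarin array lay above every DMSO array, and DMSO replicates 1 and 4 were the lowest of all 24. Silymarin averaged 9.28 ± 0.48 (SD, n = 3), and DMSO averaged 8.20 ± 0.65 (SD, n = 5). The difference was 1.07 (SE 0.33, 95% interval 0.40 to 1.75), or 2.11-fold, with limma's unadjusted p = 0.00315 and adjusted p = 0.991. Without DMSO replicates 1 and 4 it was 0.63, with limma's unadjusted p = 0.0529. In those 2 arrays the neutrophil chemokine CXCL8 was also low, at 8.16 and 8.43, against 9.32 to 10.72 in the other DMSO arrays at 8 h, and its part in the HP result was not tested.

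HP did not separate the labels at the other times. At 4 h it was 8.54, 9.04, 8.62 and 8.99 in DMSO replicates 1 to 4 and 8.63, 9.09, 9.04 and 9.92 in the silymarin replicates, a difference of 0.38 (SE 0.32). Silymarin replicate 4 was the highest of all 24 arrays, and without it the difference was 0.13. At 24 h the DMSO values were 8.64, 8.87, 8.92, 9.43 and 9.89 and the silymarin values 9.60, 8.88 and 8.93, a difference of -0.02 (SE 0.33). The ranges overlapped at both times. Averaged over the 3 time points, 8 h included, HP differed by 0.48 (SE 0.19), with limma's unadjusted p = 0.0172 and adjusted p = 0.99986. For this average 1 of the 10 genes, HP, had an unadjusted p under 0.05, against 518 of the 18274 genes. Without DMSO replicates 1 and 4 at 8 h the average was 0.33 (SE 0.16), with limma's unadjusted p = 0.0569.

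Hemopexin showed a smaller difference at 8 h with overlapping groups. Its levels were 10.55, 11.03, 10.72, 10.03 and 10.54 in DMSO and 10.93, 11.11 and 10.85 in silymarin. DMSO replicate 4 was the lowest of all 24 arrays, and DMSO replicate 2 lay inside the silymarin range. The difference was 0.39 (SE 0.15), with limma's unadjusted p = 0.0181 and adjusted p = 0.991. Without DMSO replicate 4 it was 0.25, and without replicates 1 and 4 it was 0.20, with limma's unadjusted p = 0.162. At 4 h HPX was 10.45, 10.77, 10.87 and 11.08 in DMSO and 10.65, 10.82, 10.96 and 11.03 in silymarin, a difference of 0.07 (SE 0.15). At 24 h it was 10.59, 10.94, 10.76, 10.83 and 10.96 in DMSO and 10.78, 10.83 and 10.90 in silymarin, a difference of 0.02 (SE 0.15). The silymarin values at 24 h lay inside the DMSO range.

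Of the protease inhibitors, A2M had tightly grouped silymarin values at 8 h. A2M binds proteases of many classes and is cleared through the receptor LRP1. It was 11.27, 11.41, 11.05, 11.17 and 11.25 in DMSO and 11.49, 11.47 and 11.46 in silymarin, with no overlap. The means were 11.47 ± 0.02 (SD, n = 3) and 11.23 ± 0.13 (SD, n = 5). The difference was 0.24 (SE 0.09), with limma's unadjusted p = 0.0159 and adjusted p = 0.991. It was 0.23 without DMSO replicates 1 and 4, so it was nearly as large without the arrays that lowered HP. At 4 h A2M was 11.26, 11.15, 11.34 and 11.51 in DMSO and 11.16, 11.20, 11.20 and 11.41 in silymarin, a difference of -0.07 (SE 0.09). At 24 h the values were 11.07, 11.13, 11.29, 11.31 and 11.39 in DMSO and 11.44, 11.13 and 11.24 in silymarin, a difference of 0.03 (SE 0.09).

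SERPINA3, an inhibitor of neutrophil cathepsin G, varied widely within the groups. At 4 h it was 8.22, 8.71, 7.75 and 8.34 in DMSO and 8.59, 8.47, 8.30 and 8.71 in silymarin. DMSO replicate 3 was the lowest of all 24 arrays, and the difference of 0.26 (SE 0.17) was 0.09 without it. At 8 h it was 8.21, 8.29, 8.54, 7.89 and 8.32 in DMSO and 8.75, 8.22 and 8.24 in silymarin, a difference of 0.15 (SE 0.17). It was -0.02 without silymarin replicate 1 and 0.02 without DMSO replicates 1 and 4. At 24 h the difference was -0.14 (SE 0.17). limma's adjusted p was 0.99993, 0.991 and 0.99971 at 4, 8 and 24 h.

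The 3 fibrinogen chains had high levels and no separation by label. Each fibrinogen molecule needs an alpha, a beta and a gamma chain, from FGA, FGB and FGG. FGA was 12.84, 12.51, 12.55 and 12.63 in DMSO at 4 h and 12.39, 12.49, 12.44 and 12.71 in silymarin. At 8 h it was 12.71, 12.48, 12.32, 12.90 and 12.69 in DMSO and 12.79, 12.56 and 12.61 in silymarin, and at 24 h 12.50, 12.38, 12.66, 12.65 and 12.63 against 12.75, 12.40 and 12.26. The ranges of the labels overlapped at every time. The log2 differences of FGA were -0.12 (SE 0.11), 0.03 (SE 0.12) and -0.10 (SE 0.12) at 4, 8 and 24 h. Those of FGG were -0.09 (SE 0.13), 0.11 (SE 0.14) and -0.09 (SE 0.14). Without DMSO replicates 1 and 4, the 8 h differences were 0.16 (SE 0.12) for FGA and 0.25 (SE 0.14) for FGG.

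FGB had the narrowest range of the 10 genes. Its 24 values lay between 12.69 and 12.99, a 1.23-fold span, and the 5 DMSO arrays at 8 h had an SD of 0.01. Its differences were -0.01 (SE 0.06), 0.07 (SE 0.06) and -0.01 (SE 0.06), with 95% intervals of -0.14 to 0.12, -0.07 to 0.20 and -0.15 to 0.12. Values near the top of an array's range can be compressed, and whether that held for FGB was not tested. At 8 h in DMSO, replicates 1, 4 and 5 had DDIT4 at 9.67, 10.28 and 10.11 and FGA at 12.71, 12.90 and 12.69, while replicates 2 and 3 had DDIT4 at 7.86 and 7.50 and FGA at 12.48 and 12.32. In 5 of the 6 groups every array of higher DDIT4 had more FGA signal than every array of lower DDIT4, by as little as 12.66 against 12.65 in DMSO at 24 h. How many of all genes were separated in this way was not counted. Only replicate 3 had higher DDIT4 in DMSO at 24 h, and only replicate 1 in silymarin at 4 h and 24 h. The exception was silymarin at 4 h, where replicate 1 had DDIT4 at 10.34 and the lowest FGA, 12.39. FGG and FGB followed FGA in fewer groups. Both separated by DDIT4 in DMSO at 4 h and in silymarin at 24 h. At 8 h only FGG did so in DMSO, and only FGB in silymarin. Neither did in silymarin at 4 h or in DMSO at 24 h. In the latter, replicate 3, of higher DDIT4, had FGG at 12.04 and FGB at 12.87, against 12.14 and 12.93 in replicate 5. The part of DDIT4 in the fibrinogen levels was not tested.

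Complement C3, whose cleavage starts opsonisation and the terminal pathway, had its largest difference at 4 h. It was 12.13, 12.46, 12.24 and 12.27 in DMSO and 12.42, 12.54, 12.57 and 12.25 in silymarin. The second DMSO array lay above the first silymarin array, and the fourth silymarin array lay among the DMSO values. The difference was 0.17 (SE 0.09, 95% interval -0.02 to 0.36), with limma's unadjusted p = 0.0701 and adjusted p = 0.99993. At 8 h the values were 12.03, 12.28, 12.31, 12.30 and 12.55 in DMSO and 12.34, 12.24 and 12.26 in silymarin, and the difference was -0.01 (SE 0.09), or -0.10 (SE 0.10) without DMSO replicates 1 and 4. At 24 h it was 0.01 (SE 0.09).

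CRP and LCN2 were the dim genes of the set, below the limit of 6.477 in every group mean. CRP, the acute phase marker used in the clinic, ranged from 5.10 to 5.56 over the 24 arrays. Its differences were -0.08 (SE 0.08), -0.04 (SE 0.08) and 0.14 (SE 0.08) at 4, 8 and 24 h. LCN2 ranged from 5.97 to 6.53 and differed by 0.01 (SE 0.09), -0.03 (SE 0.10) and -0.03 (SE 0.10). The 8 h differences of CRP and LCN2 without DMSO replicates 1 and 4 were -0.02 (SE 0.08) and 0.01 (SE 0.10). At such levels the probe signal can be mostly background, so these values do not show how much CRP or LCN2 transcript was present.

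**Figure D2:**
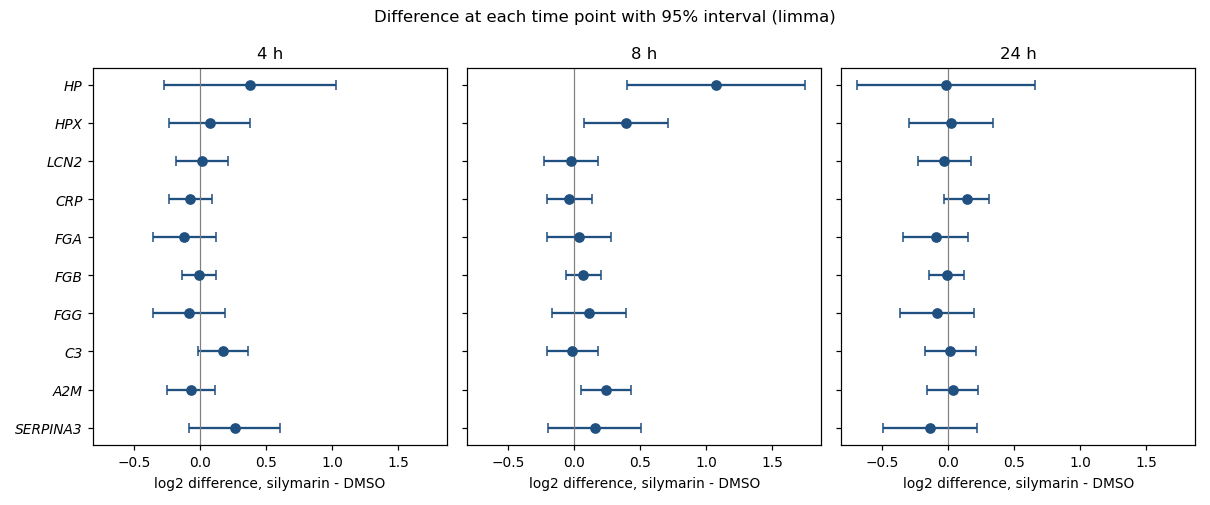
Log2 difference of silymarin minus DMSO for each gene at 4, 8 and 24 h, with points for limma's estimate and bars for the 95% confidence interval. The intervals of HP (0.40 to 1.75), HPX (0.07 to 0.71) and A2M (0.05 to 0.43) lie above 0 at 8 h before adjustment over all genes, and every interval spans 0 at 4 h and 24 h.

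Whether the treatment difference itself changed with time was tested as an interaction. The HP difference at 24 h minus that at 8 h was -1.09 (SE 0.46), with limma's unadjusted p = 0.0268 and adjusted p = 0.95. Without DMSO replicates 1 and 4 at 8 h it was -0.65 (SE 0.41), with limma's unadjusted p = 0.132. That of A2M was 0.31 (SE 0.13) higher at 8 h than at 4 h, with limma's unadjusted p = 0.0239 and adjusted p = 0.99982. No gene of the 10 passed in any of the 3 interactions, and 0% of all genes did. A2M alone had an unadjusted p under 0.05 between 4 h and 8 h, where 2.37% of all genes did, and HP alone between 8 h and 24 h, against 4.08%. Between 4 h and 24 h it was none of the 10, against 3.02%. Without those arrays C3 joined A2M between 4 h and 8 h, at -0.27 (SE 0.13), against 2.95% of all genes. None of the 10 was left between 8 h and 24 h, against 3.54%. In the F-test over the 6 groups the smallest limma adjusted p of the 10 was that of HP, 0.674, and 0% of all genes passed.

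The DMSO arrays gave the background of the time course, and they share samples with the comparisons above. In DMSO, HP at 8 h differed from 4 h by -0.59 (SE 0.30), and HP at 24 h differed from 8 h by 0.95 (SE 0.28), with limma's adjusted p of 0.739 and 0.429. Without replicates 1 and 4 at 8 h these values were -0.15 and 0.51. HPX differed by -0.22 (SE 0.14) and 0.24 (SE 0.13), or -0.03 and 0.05 without those arrays. At 24 h against 8 h in DMSO, 5 of 10 genes lay above 0, where 49.1% of all genes did, and HP alone had an unadjusted p under 0.05, where 10.9% did. Without replicates 1 and 4 none of the 10 did, against 5.64% of all genes. In silymarin the 3 arrays at 8 h lay above the 4 at 4 h and above the 3 at 24 h for A2M, and below those at 24 h for C3. Such separation was found for 11.2% of all genes between 4 h and 8 h and 8.71% between 8 h and 24 h. A2M differed there by 0.23 (SE 0.10) and -0.20 (SE 0.10), with limma's adjusted p of 0.408 and 0.826. It alone of the 10 had an unadjusted p under 0.05 for the first step, against 11.9% of all genes, and none did for the second, against 5.8%.

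Replicates of one label differed far more for HP than for most genes. The SD within groups was 0.50 for HP, against a median of 0.12 over all genes, and 99.6% of genes had a smaller one. Over the 24 arrays HP spanned 2.61 on the log2 scale, or 6.12-fold, against a median span of 0.50. SERPINA3 had an SD of 0.26 and HPX of 0.23, above 95.7% and 93.5% of genes. FGG and FGA followed at 0.20 and 0.17. FGB, at 0.08, was above 9.2% of genes, and CRP above 36.8%. Among genes within 0.5 of its own mean log2 level, FGB was above 66.7% and CRP above 23.5%. By that measure FGG and FGA were above 96.4% and 96.7%, HP above 99.3%, SERPINA3 above 92.7% and HPX above 97.1%. The 6 groups accounted for 44.9% of the variance of HP and for 12.4% to 32.1% of that of the other 9 genes, against a median of 23.2% over all genes.

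Some of the 10 genes varied together within the groups, most closely the fibrinogen chains. Likeness was measured as the correlation of deviations from the group means over the 24 arrays, for all 45 pairs. By permutation 7 pairs passed an adjusted p under 0.05, each with a positive correlation. Arrays were permuted freely across groups, though such deviations keep only 18 residual degrees of freedom, so these p-values can be too small. The pairs nearest the threshold are the least certain. The weakest of the 7 had r = 0.54, and 7.62% of all pairs of the 18274 genes had an r at least that far from 0. LCN2, CRP and C3 were in none of the 7. FGA and FGG had a Pearson r of 0.93 and a Spearman rho of 0.92, each with permutation p = 1e-05, the smallest that 100000 resamples can give, and adjusted p = 0.00045 for r. FGB correlated with FGG (r = 0.80, rho = 0.81, permutation p = 2e-05 and 1e-05) and with FGA (r = 0.78, rho = 0.80, permutation p = 3e-05 and 2e-05). Without the 2 arrays farthest from the median these 3 values of r were 0.91, 0.77 and 0.78. Among the 14 arrays of lower DDIT4 the r of FGA and FGG was 0.88, and among the 10 of higher DDIT4 it was 0.93. A2M also varied with FGG (r = 0.54, rho = 0.49, permutation p = 0.00619 and 0.0153, adjusted p = 0.0398 and 0.069), but r was 0.19 among the arrays of higher DDIT4. FGB with SERPINA3 passed by rank only (r = 0.47, rho = 0.54, permutation p = 0.0222 and 0.00717, adjusted p = 0.068 and 0.0461).

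Haptoglobin was in 3 of the 7 pairs. It correlated with HPX (r = 0.65, rho = 0.56, permutation p = 0.00043 and 0.00447, adjusted p = 0.00484 and 0.0402), with SERPINA3 (r = 0.59, rho = 0.58, permutation p = 0.00227 and 0.0038, adjusted p = 0.0204 and 0.0402) and with A2M (r = 0.58, rho = 0.56, permutation p = 0.00307 and 0.00559, adjusted p = 0.023 and 0.0419). Without the 2 arrays whose HP deviations lay farthest from the median, the values of r were 0.64, 0.58 and 0.46. These 2 were silymarin replicate 4 at 4 h and DMSO replicate 5 at 24 h. DMSO replicates 1 and 4 at 8 h, with the lowest HP levels, stayed in. Within the arrays of lower and of higher DDIT4 the r of HP and HPX was 0.62 and 0.66. HPX and A2M had r = 0.46, HPX and SERPINA3 r = 0.21, and A2M and SERPINA3 r = 0.13, with adjusted p of 0.068, 0.494 and 0.661. HP and FGB had r = 0.51 and rho = 0.47 (permutation p = 0.0104 and 0.0224, adjusted p = 0.0541 and 0.0916), and r was 0.79 in the arrays of lower DDIT4. HP and FGG had r = 0.19, and 0.60 in the arrays of lower DDIT4. HP and FGA had r = 0.10 and rho = 0.11 (permutation p = 0.648 and 0.615, adjusted p = 0.748 for both). HPX and FGA had r = -0.46 and rho = -0.44 (permutation p = 0.0227 and 0.0335, adjusted p = 0.068 and 0.108), and r was -0.26 without the 2 farthest arrays.

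**Figure D3:**
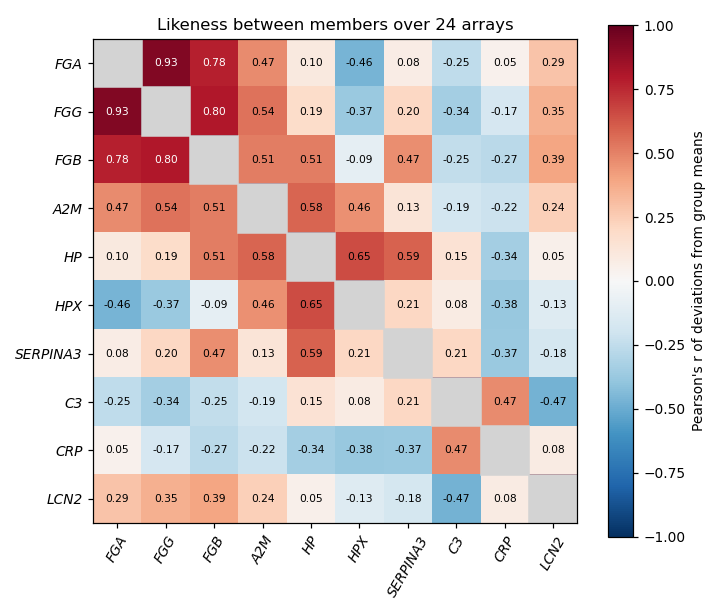
Pearson's r of the deviations from group means over 24 arrays for each pair of the 10 genes, on a colour scale from -1 (blue) to 1 (red), with the value printed in each square. The fibrinogen chains form a red block (0.78 to 0.93), and HP has values of 0.58 to 0.65 with A2M, SERPINA3 and HPX.

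The same measure was taken against CXCL8, CXCL10, CCL20, TNFAIP3 and NFKBIA, which are chemokines and feedback inhibitors under NF-kB. These genes were picked because earlier results of the same arrays showed them to vary, and 13 of 50 pairs passed an adjusted p under 0.05. The permutations were again free across groups, so these p-values can also be too small. Of all pairs of a gene with one of these 5, 11.4% had an r at least as far from 0 as the weakest of the 13. All 5 pairs of HP and all 5 of HPX were among the 13. By rank 9 of 50 pairs passed, and HP with NFKBIA and HPX with CCL20 did not, at adjusted p of 0.0687 and 0.0507 for rho. HP correlated most with CCL20, a lymphocyte chemokine (r = 0.74, rho = 0.73, permutation p = 5e-05 and 0.00011, adjusted p = 0.000833 and 0.00275). That r was 0.78 without the 2 arrays whose HP deviations lay farthest from the median. DMSO replicates 1 and 4 at 8 h were not those 2, and no r was computed without them. HPX correlated most with CXCL10 (r = 0.80, rho = 0.73, permutation p = 1e-05 and 7e-05, adjusted p = 0.0005 and 0.00275), and r was 0.68 without its 2 farthest arrays. In the arrays of lower and of higher DDIT4, r was 0.70 and 0.76 for HP with CCL20 and 0.73 and 0.74 for HPX with CXCL10. The other 3 pairs were SERPINA3 with CXCL8 (r = 0.53, rho = 0.50, permutation p = 0.00837 and 0.0141, adjusted p = 0.0349 and 0.0543), C3 with CCL20 (r = 0.51, rho = 0.38, permutation p = 0.0107 and 0.0689, adjusted p = 0.041 and 0.191) and FGA with NFKBIA (r = -0.54, rho = -0.51, permutation p = 0.0064 and 0.0122, adjusted p = 0.0291 and 0.0507). Without the 2 arrays farthest in C3, the r of C3 with CCL20 was 0.30. It was 0.29 among the arrays of lower DDIT4 and 0.67 among those of higher DDIT4. The 9 pairs by rank also held SERPINA3 with CCL20, which was not among the 13 (r = 0.48, rho = 0.58, permutation p = 0.0184 and 0.00376, adjusted p = 0.0542 and 0.0209).

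**Figure D4:**
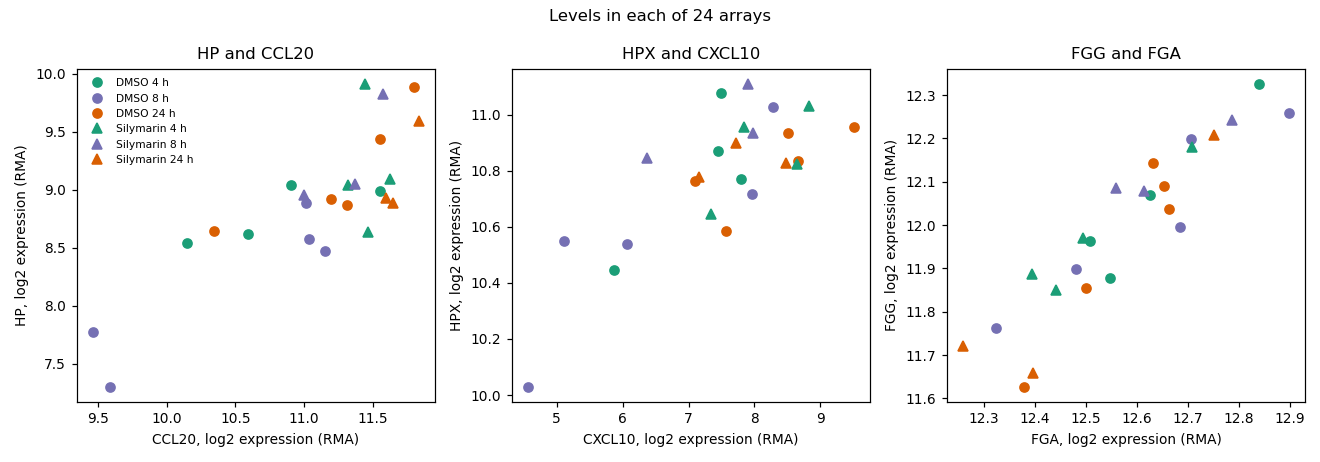
Log2 levels (RMA) in each of the 24 arrays, HP against CCL20, HPX against CXCL10 and FGG against FGA, with circles for DMSO, triangles for silymarin and colour for time. HP is lowest, at 7.78 and 7.30, in the 2 DMSO arrays at 8 h where CCL20 is 9.46 and 9.59.

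Over all genes, the closest matches of each member were read from the same deviations, as a description with no test. The gene most like HP was its paralog HPR (r = 0.89 over 24 arrays), and a probe set of one of these near-identical genes may also take up transcripts of the other, so the HP signal is uncertain in that respect. HABP2 and AGXT, a liver enzyme of glyoxylate metabolism, followed at 0.85 and 0.84. FGA and FGG were each the closest gene to the other (r = 0.93). SERPINC1, which encodes antithrombin, was closest to FGB (r = 0.91). SERPINA3 was closest to FGL1, a fibrinogen-like liver protein (r = 0.86), A2M to the chaperone CALR (r = 0.92), HPX to NME4 (r = 0.91) and C3 to BICC1 (r = 0.84). The dim genes LCN2 and CRP were closest to MIR4697HG and MIR377 (r = 0.89 and 0.81), which had mean log2 levels of 5.74 and 2.88.

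Other genes of the pathway were counted from lists, and none of their members passed limma at any time point. Over all genes 47.5%, 42% and 56% of differences lay above 0 at 4, 8 and 24 h. In the cytokine signalling list, with receptors, kinases and transcription factors that act on acute phase genes, 15, 12 and 11 of 21 lay above 0 at 4, 8 and 24 h, with medians of 0.05, 0.01 and 0.01. Without DMSO replicates 1 and 4 it was 8 of 21 at 8 h, where 41.4% of all genes lay above 0. IL6ST, the shared receptor chain of the interleukin-6 family, differed by 0.13 (SE 0.06) at 4 h, and the transcription factor CEBPD by 0.33 (SE 0.16) at 8 h, or 0.20 (SE 0.17) without DMSO replicates 1 and 4. Interleukin-6 itself was dim, at a mean of 4.93. Among 13 measured further acute phase genes, 8, 10 and 10 lay above 0, with medians of 0.01, 0.06 and 0.09. Ceruloplasmin (CP), a copper carrier, differed by 0.71 (SE 0.25) at 4 h, and the serum amyloid gene SAA2 by 0.24 (SE 0.10) at 8 h and 0.30 (SE 0.10) at 24 h, though SAA2 was dim, with a mean of 5.85.

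Negative acute phase proteins, which the liver makes less of in inflammation, had 6, 8 and 4 of 9 above 0, with medians of 0.01, 0.05 and 0.00. Transthyretin (TTR) differed by 0.24 (SE 0.12) at 8 h, or 0.14 (SE 0.12) without DMSO replicates 1 and 4. Complement components and regulators had 17, 14 and 14 of 24 above 0, with medians of 0.07, 0.02 and 0.01, and C6, of the terminal pathway, differed by 0.34 (SE 0.10) at 4 h but was dim, with a mean of 5.27. Coagulation and fibrinolysis genes had 16, 13 and 8 of 19 above 0, with medians of 0.12, 0.10 and -0.02. Plasminogen (PLG), whose active form dissolves fibrin, differed by 0.55 (SE 0.23) at 8 h. Among receptors and clearance genes, 5, 5 and 10 of 15 lay above 0, with medians of -0.05, -0.04 and 0.02. LRP2, an endocytic receptor of the same family as LRP1, differed by -0.61 (SE 0.21) at 8 h with no overlap, or -0.41 (SE 0.22) without DMSO replicates 1 and 4. HPR differed by 0.54 (SE 0.24), or 0.34 (SE 0.26) without them. LRP1, which takes up A2M and heme-bound hemopexin, differed by -0.16 (SE 0.08) at 8 h and 0.18 (SE 0.08) at 24 h, and CD163, the macrophage receptor for haptoglobin with hemoglobin, was dim at 4.91. Of 7 measured liver transcription factors, 3, 2 and 2 lay above 0, with medians of -0.0048, -0.14 and -0.02, and ONECUT1 differed by -0.32 (SE 0.10) at 8 h.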

How the data were processed

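RNA of 24 Huh7.5.1 samples was measured on Affymetrix arrays. Per the submitters' processing notes, the authors used oligo and RMA, and the deposited values are on the log2 scale. Versions and the genome build were not given in the sources used here. RMA removes background, equalises the distributions of the arrays and combines the probes of each set, so values are relative within the set of arrays. They were used as deposited, and the array medians lay between 7.04 and 7.18.

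Of 28869 probe sets, 19302 had 1 gene symbol in the platform annotation, 1729 several, and 7838 were not listed. The probe set with the highest mean was kept for each of 18274 genes. A single limma fit (limma 3.58.1, R 4.3.3) estimated the mean of each of the 6 groups from the 24 arrays, with two-sided tests and Benjamini-Hochberg adjustment over all genes at a threshold of 0.05. Intervals are 95% confidence intervals of that fit. It had 18 residual and 5.04 prior degrees of freedom, and the number of arrays limits the precision. The scripts were tested on simulated data.

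Correlations used 100000 permutations, two-sided, of deviations from group means, adjusted over 45 or 50 pairs. The permutations ignored the groups, so their p-values can be too small. Motifs were matched exactly on both strands, with 1 window per gene for the share over all promoters. Named genes were the 10 members, up to 3 genes with the smallest p of each list, and the 3 genes most like each member. Members, lists and comparison genes were chosen with earlier results of these data known. Alternatives were other scalings, a filter on dim genes, averaging all probe sets of a gene, other limma settings, the groups compared alone, the replicate number as a block and leaving out arrays. Correlations of deviations between same-numbered arrays of both labels ranged from -0.14 to 0.43, so the numbers were not taken as pairs. Promoters of HP, C3 and A2M were not analysed here. Figures were drawn with matplotlib 3.10.9.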

Additional observations from a re-analysis of the deposited data

Results flagged for a closer look

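Of 40 sets of values tested, 10 genes in each of the 4 groups with 4 or 5 arrays, 1 held an array far from the others, and chance gives about 1 in 20. CRP in DMSO at 24 h was 5.18 in replicate 1, and 5.26 to 5.29 in the other 4 arrays, at a level where the gene was dim.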

How the results depend on the processing

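Of the 30 silymarin differences of the 10 genes, 13 kept their sign under every alternative run, those of HP, HPX and A2M at 8 h among them, and the smallest limma adjusted p was 0.552. Sign changes were as follows, and the cause was not tested. Re-centring gave 0.006657 for FGB at 4 h, -0.002013 for HPX and -0.007112 for C3 at 24 h, and 2 members above 0 at 24 h. Repeated quantile normalization gave FGB 0.02435 at 4 h and 0.006313 at 24 h, and cyclic loess 0.001676 at 24 h; each called 1 gene at 24 h. Array weights gave 0.002365 for LCN2, -0.02905 for FGA and 0.001867 for C3 at 8 h, -0.01421 for A2M at 24 h, and 1 gene called for silymarin 8 h minus 4 h. The replicate block gave LCN2 0.02177 and C3 0.003722 at 8 h. At 24 h it gave HP 0.1729, LCN2 0.01767 and FGB 0.01084, and 7 members above 0, with the share of all genes not counted. Leaving out DMSO replicates 1 and 4 at 8 h, for single genes, interactions and gene lists, was chosen after seeing the data, and LCN2 was then 0.007318.

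Leaving out each array in turn gave these ranges where a sign changed. At 4 h they were -0.04226 to 0.1682 for HPX, -0.05848 to 0.06421 for LCN2, -0.05071 to 0.02053 for FGB and -0.1568 to 0.001453 for FGG. At 8 h they were -0.0733 to 0.0288 for LCN2, -0.08757 to 0.02763 for CRP, -0.03926 to 0.1042 for FGA, -0.0804 to 0.04887 for C3 and -0.01928 to 0.2461 for SERPINA3. At 24 h they were -0.2467 to 0.1686 for HP, -0.03746 to 0.05524 for HPX, -0.07511 to 0.03034 for LCN2, -0.2373 to 0.008616 for FGA, -0.08909 to 0.05804 for FGB, -0.2613 to 0.01368 for FGG, -0.02467 to 0.04139 for C3 and -0.05407 to 0.1029 for A2M, with 1 to 7 members above 0. HPX in DMSO at 24 h minus 4 h ranged from -0.09191 to 0.1185. Of 24 DMSO time results of the other 8 genes, 14 changed sign under some alternative, with a smallest adjusted p of 0.378.

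The group sizes of 3 to 5 arrays limit all values, and CRP and LCN2 were dim, so their values bound no difference in transcript. The same-numbered arrays did not vary together throughout, and the block changed no member's call.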

Other observations

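In DMSO, 24 h against 8 h, 9 of 24 complement components and regulators had an unadjusted p under 0.05, where 10.9% of all genes did, and none passed limma. Without DMSO replicates 1 and 4 at 8 h, 0 of 24 did, against 5.64% of all genes. The protease pair of the classical pathway, C1S and C1R, differed by 0.42 (SE 0.13) and 0.22 (SE 0.08) with all arrays, and by 0.31 (SE 0.15) and 0.16 (SE 0.09) without those 2. CFI, which cleaves C3b, differed by 0.44 (SE 0.13) and by 0.23 (SE 0.12). Coagulation genes had 16 of 19 above 0 with and without the 2 arrays, where 49.1% and 50.8% of all genes lay above 0. F13B, a carrier subunit of the fibrin cross-linking factor, differed by 0.66 (SE 0.26) and by 0.30 (SE 0.27).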
